A study of Rattus norvegicus with 4 samples.

Results

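Genes that set the direction of glucose traffic in the liver were followed in 4 RNA sequencing libraries of rat liver. They were the 9 genes *Pck1*, *G6pc*, *Fbp1*, *Ppargc1a*, *Gckr*, *Pklr*, *Pfkfb1*, *Pfkfb3* and *Slc2a2*, taken by gene symbol from the 16999 genes analysed, and each was listed at 1 position. The livers came from wild-type rats that inhaled either sevoflurane (4.5%) or desflurane (6%), which are halogenated agents for general anesthesia. The control rats (sevoflurane 0 h and desflurane 0 h) were decapitated once they had lost consciousness and so had also inhaled their agent briefly, and the other rats were kept under anesthesia for 6 h (sevoflurane 6 h and desflurane 6 h). Strain, sex and age, and how many rats a library stands for, were not given in the labels used here. With 1 library a group, no value has a replicate error, and the livers of controls and of 6 h rats were taken 6 h apart, so that the duration of anesthesia and the hour of the day cannot be told apart.

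Levels are given as TPM, a measure of transcript abundance scaled for gene length and library size. The aligned bases amounted to 3.50 Gb in sevoflurane 0 h and to between 5.29 and 5.57 Gb in the other libraries, and a TPM of 2 stood for a mean read depth of 4.72 in the former and of 6.84 to 7.28 in the latter. Hepatocyte markers were abundant in every library, with a summed TPM of the 7 genes between 99069 and 111038 and *Alb* between 53282 and 58868. Markers of pancreatic acinar cells, which would mark neighboring tissue, summed to between 0.048 and 0.245, and 3 of the 5 were listed at 0 in all libraries. In whole liver, fewer cells of a type and less RNA per cell cannot be told apart.

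Gluconeogenesis makes glucose from lactate, glycerol and amino acids, and in the fasted state the liver releases this glucose into the blood. Glycolysis runs the other way after a meal. The pathways share their reversible steps and differ at substrate cycles, where a gluconeogenic enzyme and a glycolytic enzyme oppose each other. Glucagon, acting through cyclic AMP, and glucocorticoids raise the transcription of gluconeogenic genes, whereas insulin lowers it.

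The promoters of 4 of the genes are shown as examples, those of 3 genes of glucose production and of *Pklr* on the side of glycolysis, each of which held letters searched for. Whether the expression values depend on these letters was not tested. The stretches are the 250 bases before the start that RefSeq gives on the rat assembly GRCr8, which is not the build of the expression tables, and read in the direction of the gene. All 9 genes had an entry, *G6pc* under its present symbol G6pc1. Capitals mark letters searched for on both strands, namely the cyclic AMP response element (TGACGTCA) and its core (TGACG), the forkhead letters TGTTTAC and TGTTTTG, the E-box CACGTG, and the carbohydrate response element known from liver pyruvate kinase.
Pck1, chr3:182348322-182348571, plus strand: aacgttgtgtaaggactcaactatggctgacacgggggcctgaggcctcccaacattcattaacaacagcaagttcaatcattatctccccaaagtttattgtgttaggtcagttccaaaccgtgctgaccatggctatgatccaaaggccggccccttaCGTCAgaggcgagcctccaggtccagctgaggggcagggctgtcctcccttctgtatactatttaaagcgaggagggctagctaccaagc
Ppargc1a, chr14:63634058-63634307, plus strand: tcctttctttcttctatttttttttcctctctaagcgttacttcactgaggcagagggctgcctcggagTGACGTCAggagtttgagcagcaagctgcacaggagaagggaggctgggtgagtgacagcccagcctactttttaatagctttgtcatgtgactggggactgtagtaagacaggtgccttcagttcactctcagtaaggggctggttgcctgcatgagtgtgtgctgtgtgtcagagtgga
G6pc, chr10:86807409-86807658, plus strand: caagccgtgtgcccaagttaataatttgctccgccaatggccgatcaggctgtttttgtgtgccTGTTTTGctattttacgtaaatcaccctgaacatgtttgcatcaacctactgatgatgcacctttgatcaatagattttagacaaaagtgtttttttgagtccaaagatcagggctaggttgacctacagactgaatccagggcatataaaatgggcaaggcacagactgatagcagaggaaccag
Pklr, chr2:176841014-176841263, plus strand: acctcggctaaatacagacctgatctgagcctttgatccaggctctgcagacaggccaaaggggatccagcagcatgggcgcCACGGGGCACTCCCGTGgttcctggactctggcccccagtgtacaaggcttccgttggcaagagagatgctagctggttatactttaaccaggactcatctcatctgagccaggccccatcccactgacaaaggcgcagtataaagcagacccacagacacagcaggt
The whole element TGACGTCA was found in *Ppargc1a*, where it also holds the core on both strands, and in 1.59% of the 33469 promoters of the same length. The core was found in *Pck1*, *Ppargc1a* and *Gckr* and in 18.2% of promoters. The letters TGTTTTG were found in *G6pc* alone among the 9 genes and in 5.46% of promoters, while TGTTTAC was found in none of the 9 and in 3.21%. *Pfkfb3*, not printed, held CACGTG, as did 5.59% of promoters. The carbohydrate element was present in 1 of all promoters, which is that of *Pklr* itself. As its letters were those known from liver pyruvate kinase, this match follows from the choice of letters. The 250 bases of *Fbp1*, *Pfkfb1* and *Slc2a2* held none of these letters. A match describes the letters in this window and was not tested as a binding site.

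Among the genes of the gluconeogenic route, *Pck1* encodes the cytosolic phosphoenolpyruvate carboxykinase, which commits oxaloacetate to glucose. It lies at 171213936 to 171219885 of chromosome 3 in the tables (build rn6). In the sevoflurane pair its TPM was 527 at 0 h and 1497 at 6 h, and in the desflurane pair 942 and 1762. It was the most abundant of the 9 genes in all 4 libraries and moved from rank 126 to rank 52 of all genes with sevoflurane and from rank 78 to rank 42 with desflurane. The level at 6 h was 2.84-fold that of the control with sevoflurane and 1.87-fold with desflurane, and both 6 h libraries lay above both controls.

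*G6pc* encodes the catalytic subunit of glucose-6-phosphatase, which releases free glucose, and lies on chromosome 10 from 89286009 to 89296213. The sevoflurane pair had a TPM of 361 at 0 h and 258 at 6 h, and the desflurane pair 199 and 651. The level was 3.27-fold higher after desflurane than in its control, whereas it was 1.40-fold lower after sevoflurane, which is less than the 1.81-fold by which the sevoflurane control exceeded the desflurane control. The sevoflurane 6 h library lay between the controls, so the order of the 4 libraries did not follow time. When the controls were exchanged, so that each 6 h library was set against the 0 h library of the other agent, the log2 difference became 0.37 for sevoflurane and 0.85 for desflurane.

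*Fbp1*, which encodes the liver fructose bisphosphatase and lies on chromosome 17 from 396176 to 417480, had the narrowest range of the 9 genes. Its TPM was 306 and 416 in the sevoflurane pair (0 h, then 6 h) and 387 and 412 in the desflurane pair, so both 6 h libraries lay above both controls by a small margin. The 6 h libraries were 1.36-fold and 1.07-fold above their controls, against 1.26-fold between the controls.

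*Ppargc1a* encodes the coactivator PGC-1α, which raises the transcription of gluconeogenic and mitochondrial genes. It lies on chromosome 14 from 63095827 to 63186819. Its TPM was 0.026 in sevoflurane 0 h and 0.41 in desflurane 0 h, and it reached 2.48 in sevoflurane 6 h and 9.09 in desflurane 6 h. On the scale of log2(TPM + 1), which understates the changes of low genes, the sevoflurane pair differed by 1.76 and the desflurane pair by 2.84, and this was the largest difference among the 9 genes with each agent. The mean read depth of the gene was only 0.060 in sevoflurane 0 h and 1.42 in desflurane 0 h, so the size of the fold against these controls is poorly determined. In the 6 h libraries the depth was 8.48 and 33.1.

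**Figure D1:**
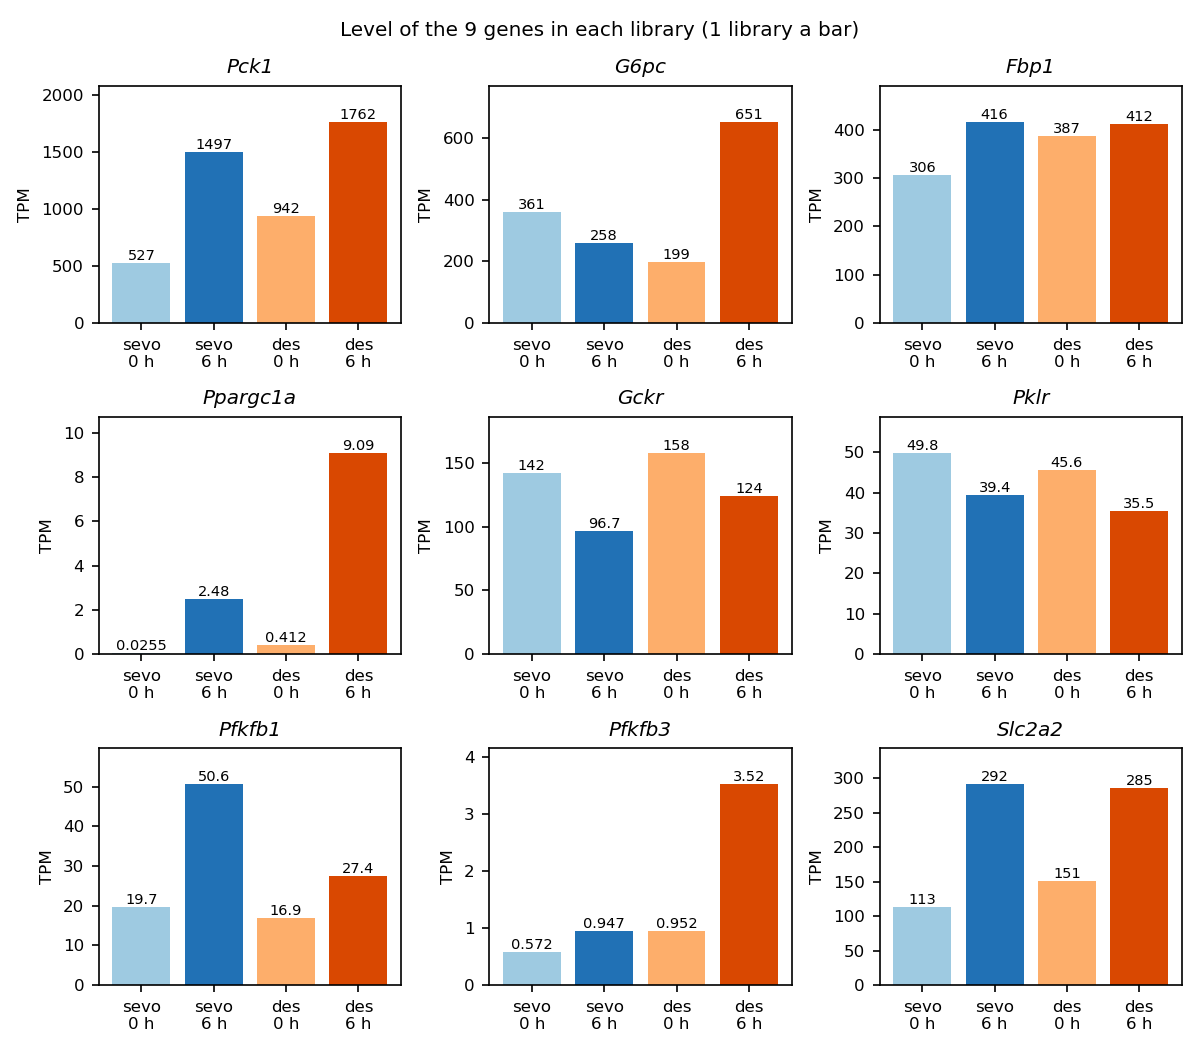
TPM (vertical axis, from 0, own scale for each gene) of the 9 genes in the 4 libraries, with 1 bar for each library and no error bar, since there is 1 library a group. *Pck1*, *Fbp1*, *Ppargc1a*, *Pfkfb1* and *Slc2a2* are higher in both 6 h libraries than in both controls, *Gckr* and *Pklr* are lower in both, and *G6pc* is highest in desflurane 6 h at 651.

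*Gckr* encodes a regulatory protein of hepatocyte glucose metabolism, which is not placed on either side here, and lies on chromosome 6 from 26355296 to 26385761. Its TPM went from 142 to 96.7 in the sevoflurane pair and from 158 to 124 in the desflurane pair, log2 differences of -0.55 and -0.34. *Pklr*, the liver pyruvate kinase on chromosome 2 from 188449661 to 188458034, catalyses the last step of glycolysis. Its TPM was 49.8 and 39.4 in the sevoflurane pair and 45.6 and 35.5 in the desflurane pair, log2 differences of -0.33 and -0.35. Both genes were lower in both 6 h libraries than in either control, but by less than the ratio of 2 required here for a call.

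The bifunctional enzymes of the Pfkfb family make and break down fructose 2,6-bisphosphate, the allosteric signal that speeds glycolysis and slows gluconeogenesis. *Pfkfb1*, the liver form on the X chromosome from 23092159 to 23144324, had a TPM of 19.7 and 50.6 in the sevoflurane pair and of 16.9 and 27.4 in the desflurane pair. The ratio of 6 h to 0 h was 2.56 for the former and 1.62 for the latter. *Pfkfb3*, an inducible form with high kinase activity, lies on chromosome 17 from 70684134 to 70711224 and was low, with a TPM of 0.57 and 0.95 in the sevoflurane pair and of 0.95 and 3.52 in the desflurane pair. Only desflurane 6 h stood apart, at 3.70-fold its control and 3.72-fold sevoflurane 6 h. At a TPM of 0.95 in desflurane 0 h its mean read depth was 3.29, and over the assembled locus with the largest overlap in each library the log2 difference with desflurane was 0.43 in place of 1.21.

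*Slc2a2* encodes GLUT2, the transporter through which glucose enters and leaves hepatocytes, and lies on chromosome 2 from 114413586 to 114445379. Its TPM was 113 and 292 in the sevoflurane pair and 151 and 285 in the desflurane pair. These are ratios of 2.57 and 1.89, both 6 h libraries lay above both controls, and the libraries at 6 h differed from each other by 1.02-fold.

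A gene was called higher or lower where its TPM exceeded 2 in the higher library of a pair and the ratio exceeded 2. No p-value can be given for a pair of single libraries. With sevoflurane 4 of the 9 genes were called higher (*Pck1*, *Ppargc1a*, *Pfkfb1* and *Slc2a2*) and 0 lower, where 5.04% of the 8270 genes above the minimum were called higher and 3.71% lower. With desflurane 3 were called higher (*G6pc*, *Ppargc1a* and *Pfkfb3*) and 0 lower, where 4.10% and 5.55% of 8372 genes were called. *Ppargc1a* was the 1 gene of the 8 above the minimum in both pairs that was called higher with both agents, where 2.54% of 8085 genes were higher with both and 121 of them lower with both. With a minimum TPM of 5 in place of 2, *Ppargc1a* lost its call with sevoflurane and *Pfkfb3* its call with desflurane, which left 3 and 2 genes called higher, where 4.82% and 4.13% of genes were, and 0 with both agents. The median log2 difference was 0.88 over the 8 genes above the minimum with sevoflurane and 0.90 over all 9 with desflurane, while the medians of all genes above the minimum were 0.05 and -0.11. *Pck1* and *Slc2a2* fell short of a ratio of 2 with desflurane and passed it under median-of-ratios scaling, which made 5 genes called higher where 5.04% of genes were. With the controls exchanged, *Pck1* and *Slc2a2* lost the call for sevoflurane (log2 differences of 0.67 and 0.94), leaving 2 genes where 3.24% of all genes were higher. For desflurane they gained it (1.74 and 1.32) while *G6pc* lost it, giving 4 genes where 6.13% were higher.

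Other limits on the ratio changed some of these counts. Above a ratio of 3, *Ppargc1a* alone was called higher with sevoflurane, where 2.01% of genes were higher and 1.43% lower, while the count with desflurane stayed at 3, where 2.02% were higher and 1.70% lower. Above a ratio of 1.5, the count with sevoflurane stayed at 4, where 13.9% of genes were higher and 9.36% lower, and with desflurane 6 of the 9 genes were higher, where 9.07% were. At that ratio *Pck1* was higher and *G6pc* lower in the desflurane control than in the sevoflurane control, where 7.82% and 2.74% of genes were, and *Pfkfb1* was lower after 6 h of desflurane than of sevoflurane, where 7.68% were.

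Between the controls, 0 of the 7 genes above the minimum were called, where 1.96% of genes were higher and 0.799% lower in the desflurane control. *Pck1* was 1.79-fold and *Slc2a2* 1.33-fold higher in the desflurane control. Between the 6 h libraries, *G6pc* (2.53-fold), *Ppargc1a* (3.67-fold) and *Pfkfb3* were called higher after desflurane and 0 genes lower, where 2.21% and 1.77% of genes were called. *Pfkfb1* went the other way, at 1.85-fold more after sevoflurane, without passing the rule. Whether the response to the agents differed was not tested, since there was 1 pair of libraries for each agent.

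**Figure D2:**
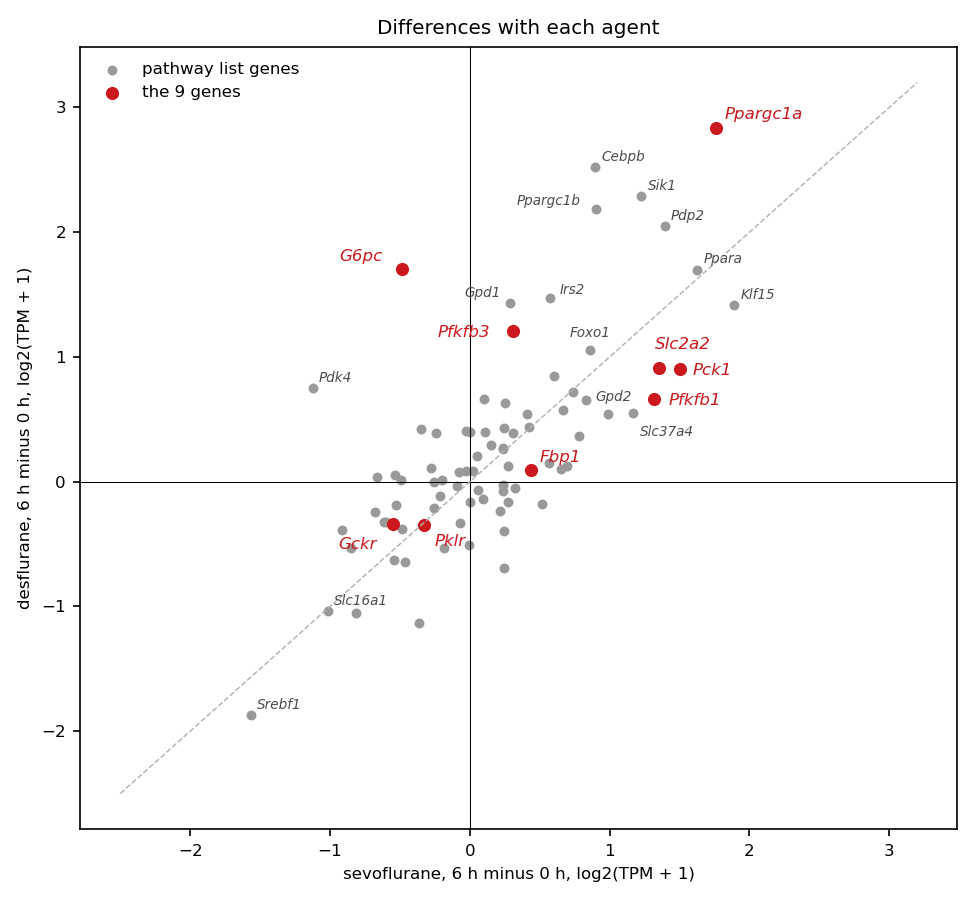
Difference of log2(TPM + 1) between 6 h and 0 h with sevoflurane (horizontal axis) and with desflurane (vertical axis), which share no library, for the 9 genes (red) and the other genes of glucose metabolism (gray), with a dashed line of equal difference. *G6pc* lies at -0.48 and 1.70 and *Ppargc1a* at 1.76 and 2.84.

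The change common to the agents was then examined with limma over the 8024 genes whose TPM averaged 2 or more, with the controls as one side and the 6 h libraries as the other (n = 2 each), so that differences between the agents count as spread. Of the 8 genes that entered, 3 rose at an adjusted p below 0.05, where 3.54% of genes rose and 2.54% fell. *Slc2a2* rose by 1.13 ± 0.16 on the log2 scale (SE, limma, adjusted p = 0.00635), *Ppargc1a* by 2.30 ± 0.45 (limma, adjusted p = 0.0241) and *Pck1* by 1.20 ± 0.24 (limma, adjusted p = 0.0271). *Pfkfb1* had a log2 difference of 0.99 ± 0.27 and an adjusted p of 0.0743 in limma, which became 0.00583 with the agent as a block. *Gckr* stood at -0.45 ± 0.16 (limma, adjusted p = 0.159), *Pklr* at -0.34 ± 0.15 (limma, adjusted p = 0.245), *G6pc* at 0.61 ± 0.41 (limma, adjusted p = 0.479) and *Fbp1* at 0.27 ± 0.14 (limma, adjusted p = 0.359). *Pfkfb3* was below the minimum. *Ppargc1a*, at a TPM of 0.026 and 0.41 in the controls, met the minimum only through the 6 h libraries (mean of 3.00). Its entry and its rise thus rest on the same values. At a mean TPM of at least 5 it was not tested. There 2 of 7 genes had a common change, where 271 of 5885 genes rose and 211 fell. Under median-of-ratios scaling *Ppargc1a* did not pass (limma, adjusted p = 0.0566). *Slc2a2* passed whichever library was left out (limma, adjusted p from 0.00915 to 0.0441). *Pck1* did not pass without sevoflurane 0 h (limma, adjusted p = 0.0734) or desflurane 6 h (0.0610), nor *Ppargc1a* without sevoflurane 0 h (limma, adjusted p = 0.165) or desflurane 0 h (0.0787). *G6pc* passed without sevoflurane 6 h (limma, adjusted p = 0.0286, log2 difference of 1.28) and stood at -0.06 without desflurane 6 h, and *Pfkfb1* passed without desflurane 6 h (limma, adjusted p = 0.00386).

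The balance of the opposing enzymes was read as the ratio of their TPM inside a library, which does not depend on the scaling between libraries. At the fructose phosphate cycle, *Fbp1* against *Pfkl*, the liver phosphofructokinase, gave ratios of 33.3 and 35.4 in the sevoflurane pair and of 29.8 and 33.1 in the desflurane pair. The log2 changes of 0.09 and 0.15 were no larger than the 0.16 between the controls. At the pyruvate cycle, the ratio of *Pck1* to *Pklr* was 10.6 and 38.0 in the sevoflurane pair and 20.7 and 49.6 in the desflurane pair. These are changes of 3.58-fold and 2.40-fold, where the controls differed by 1.95-fold, and with the controls exchanged the log2 change became 0.88 for sevoflurane and 2.23 for desflurane.

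**Figure D3:**
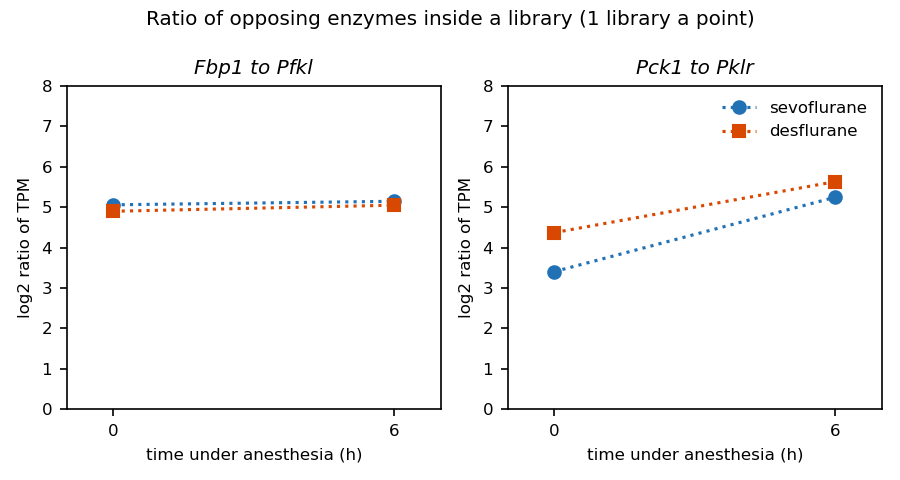
Log2 ratio of the TPM of opposing enzymes in a library (vertical axis) at 0 h and 6 h (horizontal axis) for sevoflurane (circles) and desflurane (squares), with 1 library a point and dotted lines that join the libraries of an agent. The ratio of *Fbp1* to *Pfkl* stays between 4.90 and 5.15, while that of *Pck1* to *Pklr* goes from 3.40 to 5.25 and from 4.37 to 5.63.

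The other genes of glucose metabolism were taken as 7 lists with 78 genes, of which 75 were in the tables. Of the 60 above the minimum in the sevoflurane pair, 8 passed the rule upward and 3 downward, where 5.04% and 3.71% of all genes did. Of the 62 in the desflurane pair 10 and 6 did, where 4.10% and 5.55% of all genes did. The medians of the log2 differences were 0.11 and 0.12, beside 0.05 and -0.11 over all genes. Members of the lists called in the same direction with both agents numbered 8 of the 59 above the minimum in both pairs. Of these, 6 were higher (10.2%) and 2 lower (3.39%), where 205 of the 8085 genes above the minimum in both pairs (2.54%) were higher and 121 lower. The 3 list genes lower with sevoflurane became 5 with the controls exchanged, where 3.97% of all genes were lower, and 5 after rescaling TPM without the small RNA *Rn7sl1*, where 4.46% were. The 6 lower with desflurane became 3 under median-of-ratios scaling, where 4.39% of all genes were lower. In the list of glycolytic enzymes 0 of 6 were called with sevoflurane and 0 of 5 with desflurane. Of the enzymes at reversible steps, which serve both directions, 0 of 8 were called with sevoflurane and 1 of 9, *Eno3*, was lower with desflurane (2.01 to 0.92), at the edge of the minimum. In the list of further gluconeogenic genes, *Slc37a4*, the transporter that brings glucose 6-phosphate to G6pc, was called higher with sevoflurane (TPM from 85.1 to 193) and went from 120 to 176 with desflurane, and 0 of 5 were called with desflurane.

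The transcriptional regulators, the longest of the lists, had 5 of 18 genes higher and 1 lower in the sevoflurane pair and 6 higher and 2 lower of 18 in the desflurane pair. Of all genes, 5.04% were higher and 3.71% lower in the former pair, and 4.10% and 5.55% in the latter. *Ppargc1b*, the close relative of *Ppargc1a*, rose in TPM from 0.90 to 2.54 in the sevoflurane pair and from 0.67 to 6.58 in the desflurane pair, the order used for the genes that follow. *Klf15*, a factor that favors the use of amino acids for glucose, rose from 12.7 to 49.7 and from 14.3 to 39.9. *Foxo1*, the forkhead factor restrained by insulin, rose from 2.45 to 5.27 and from 3.06 to 7.44. *Ppara*, the nuclear receptor of the fasting response, rose from 9.70 to 32.1 and from 12.7 to 43.6. *Sik1*, a kinase induced by cyclic AMP that restrains gluconeogenic transcription, rose from 4.83 to 12.6 and from 3.55 to 21.3. *Srebf1*, which is induced by insulin and drives lipid synthesis, fell from 146 to 48.6 and from 102 to 27.1. *Cebpb*, a factor of the acute phase and of gluconeogenic transcription, rose in the desflurane pair from 28.4 to 168 and stood at 42.3 and 79.3 in the other. *Creb1*, which binds the cyclic AMP response element, was the other gene lower with desflurane, from 8.23 to 3.199, and stood at 7.20 and 5.38 in the sevoflurane pair.

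Of the genes that feed substrates and govern pyruvate, *Slc16a1*, a carrier of lactate and pyruvate, fell in both pairs, in TPM from 69.7 to 34.0 and from 87.6 to 42.2. *Pdp2*, a phosphatase that activates pyruvate dehydrogenase, rose from 11.8 to 32.7 and from 10.9 to 48.2. *Pdk4*, the kinase that inactivates this enzyme, fell from 12.6 to 5.23 in the sevoflurane pair, while the desflurane pair had 8.55 and 15.04. With desflurane *Pfkfb2*, a further bifunctional enzyme, was higher (2.04 to 4.47) and *Pdp1*, another such phosphatase, lower (2.72 to 1.30). The sevoflurane pair had 1.75 and 3.18 for *Pfkfb2* and 1.47 and 1.93 for *Pdp1*. *Gpd1* and *Gpd2*, the cytosolic and mitochondrial glycerol phosphate dehydrogenases, were each called higher with 1 agent. *Gpd1* rose from 196 to 529 with desflurane (220 and 269 with sevoflurane), and *Gpd2* rose from 2.09 to 5.12 with sevoflurane (5.31 and 8.19 with desflurane). For *Gpd2* the controls differed by 2.54-fold, more than the 2.45-fold of the sevoflurane pair, and sevoflurane 6 h lay below the desflurane control. In the list of hormone signalling, 0 of 6 genes above the minimum were called with sevoflurane. With desflurane *Irs2*, an adaptor of the insulin receptor, rose from 0.50 to 3.15 (0.66 and 1.46 with sevoflurane, below the minimum). *Irs1*, a related adaptor, was called lower with desflurane, from 7.59 to 3.14 (6.61 and 3.33 with sevoflurane). *Eno3*, *Creb1*, *Pfkfb2*, *Pdp1* and *Irs1* were named after their values were seen.

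**Figure D4:**
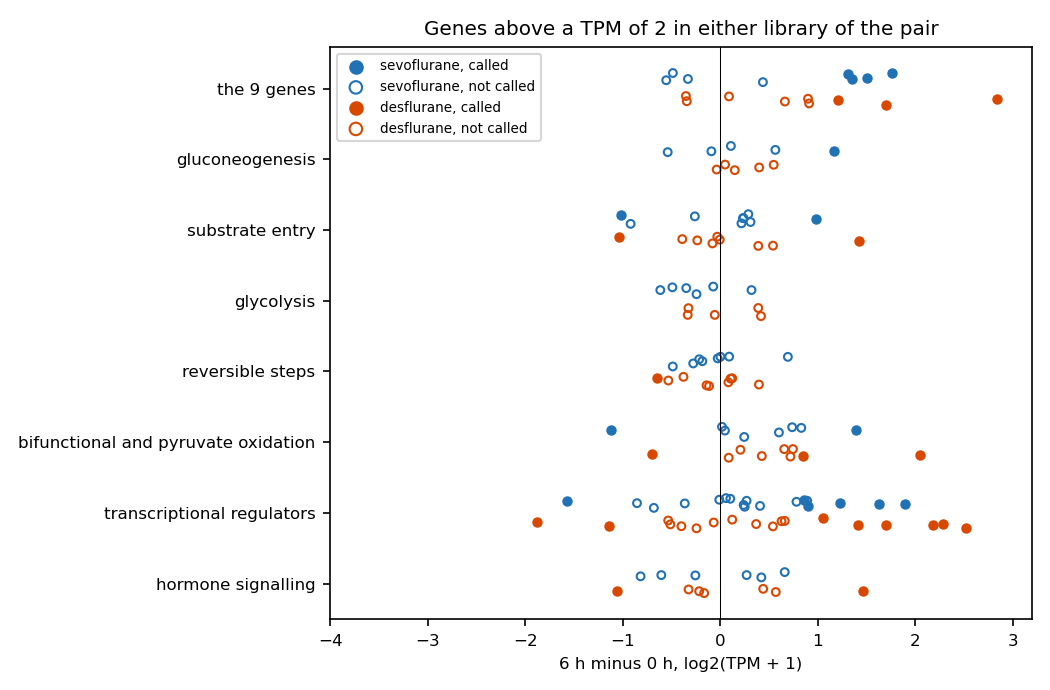
Difference of log2(TPM + 1) between 6 h and 0 h (horizontal axis) for the 9 genes and the 7 lists (rows), with sevoflurane in blue and desflurane in orange and genes past the rule as filled points. The transcriptional regulators have 5 filled points to the right with sevoflurane and 6 with desflurane, and the leftmost points are *Srebf1* at -1.57 and -1.87.

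Other markers moved between 0 h and 6 h beside these genes, and their part in the results was not tested. For the calls that follow, 5.04% of all genes were higher and 3.71% lower with sevoflurane, and 4.10% and 5.55% with desflurane. Of 10 clock genes above the minimum, 9 were called in the sevoflurane pair (7 higher, 2 lower) and 7 in the desflurane pair (6 higher, 1 lower), and *Dbp* went in TPM from 0.40 to 87.9 and from 1.92 to 44.8. Gluconeogenic genes are more active in hepatocytes near the portal vein. The summed TPM of 7 markers of these cells was 2713 and 6466 in the sevoflurane pair and 2556 and 5434 in the desflurane pair. Of the 7, 2 were called higher and 0 lower in the former, and 3 higher and 1 lower in the latter. *Arg1*, their most abundant, was called higher in both. So was *Sds*, which went from 8.66 to 1135 and from 19.8 to 714, while *Cyp2f4* went from 23.1 to 13.1 and from 26.5 to 11.1. *Sds* and *Cyp2f4* were named after their values were seen. The summed TPM of 8 markers of hepatocytes near the central vein went from 911 to 1649 and from 931 to 1928. Their most abundant, *Cyp2e1*, went from 543 to 1015 and from 610 to 1364. At or below a TPM of 2 in every library were 2 of the 8. Of the other 6, 4 had a positive log2 difference with sevoflurane (1 called higher) and 5 with desflurane (3 called higher), and 0 were called lower. Hepatocyte markers as a whole had 0 of 7 genes called with either agent. The 4 listed red blood cell markers summed to a TPM of 453 and 1215 in the sevoflurane pair and of 728 and 1343 in the desflurane pair, the order of the libraries also seen for *Pck1*. Of the 3 above the minimum, 3 were called higher with sevoflurane and 0 with desflurane. The 8 leukocyte markers, led by *Clec4f*, summed to between 161 and 208. With sevoflurane 1 of the 6 above the minimum had a positive log2 difference (median of -0.40), and 1 was called lower. With desflurane 4 of 5 had a positive difference (median of 0.26), and 0 were called. The 5 endothelial markers, led by *Lyve1*, summed to between 50.5 and 60.4, and the 3 listed markers of bile duct cells, led by *Epcam*, to between 6.61 and 8.08. The 5 stellate markers had a summed TPM of 103 and 157 in the sevoflurane pair and of 115 and 169 in the desflurane pair, higher at 6 h in both, and 0 of the 4 above the minimum were called. *Col3a1*, their most abundant, had a common change of 0.65 ± 0.13 (SE, limma, adjusted p = 0.0297).

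Genes with the profile most like those of *Ppargc1a* and *Pck1*, which ranged most over the 4 libraries, were sought by the distance between centered log2(TPM + 1) values, among genes whose TPM averaged 5 or more. Nearest to *Ppargc1a* were *Plk3* (distance of 0.35), *Pptc7* (0.47) and *Slc38a2* (0.47), of 5885 genes. *Slc38a2*, an amino acid transporter, had a TPM of 14.7 and 61.8 in the sevoflurane pair and of 18.0 and 116 in the desflurane pair. Nearest to *Pck1* were the hemoglobin genes *Hbb* (0.11) and *Hba-a2* (0.20), whose reads can be shared with near copies, and the transcription factor *Klf13* (0.21). *Hbb* had a TPM of 291 and 797, then 491 and 872. With 4 libraries many genes lie close to any profile, so the likeness is a description.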

How the data were processed

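Total RNA from liver was sequenced in 4 libraries, a 0 h and a 6 h library for either agent, grouped by the treatment and time in the labels. Per the labels, an RNeasy Midi kit served for RNA and a stranded TruSeq total RNA kit for the libraries. The submitters' processing notes name HISAT2, SAMtools, StringTie and the build rn6, without versions. For every library the authors made a table of TPM, FPKM and coverage by gene. The TPM was treated as a score, since in the deposited column the assembled loci alone fill the whole scale and the named genes bring a further share of 0.766 to 0.789 of it. The deposited FPKM is a constant multiple of TPM, and the deposited coverage is the mean read depth, from which aligned bases were taken as the median over named genes of coverage divided by FPKM. Read counts were not used here and intervals of counting error are not given.

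Entries no longer than 200 bp were dropped and entries of the same symbol added up, leaving 16999 of 17455 symbols. Calls required a TPM above 2 and a ratio above 2, differences were taken on log2(TPM + 1), and the common change was fitted with limma 3.58.1 in R 4.3.3 (eBayes with trend, two-sided, Benjamini-Hochberg) on genes whose TPM averaged 2 or more, with 2 residual degrees of freedom. The labels do not say whether a library is 1 rat or a pool, and p-values measure the spread between libraries of different agents. Steps were tested on simulated data. The genes named are the 9 genes, list genes called in the same direction with both agents, the 3 largest others per agent, *Pfkl*, the nearest profiles and the most abundant marker of each cell type. Genes outside that rule are marked as such, and 1 item is not reported here. The genes and lists were chosen with earlier results of these data known. Alternatives covered the ratio, the TPM minimum, scaling, the control used, duplicate rows, the pseudocount, assembled loci, the agent as a block and leaving out each library. Python 3.11.15 and pandas 2.3.3 were used.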

Additional observations from a re-analysis of the deposited data

Results flagged for a closer look

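In 2 genes the libraries of the agents went in opposite directions, with at least 1 of the differences past the rule. The log2 difference of *G6pc* was -0.48 with sevoflurane, which did not pass, and 1.70 with desflurane. The log2 difference of *Pdk4* was -1.12 with sevoflurane and 0.75 with desflurane, and only the former passed. The difference between the agents was not tested, because there was 1 pair of libraries for each agent, and for *G6pc* the value with sevoflurane became 0.37 when the controls were exchanged.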

How the results depend on the processing

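Each call of a pair rests on 1 library a group, and depth was lowest in sevoflurane 0 h, where low genes such as *Ppargc1a* are least precise. In 0 of the alternatives did a called difference of the 9 genes change sign. With sevoflurane, the 4 genes called higher became 1 with a ratio above 3 and 2 with the control of the other agent. With desflurane, the 3 called higher became 6 with a ratio above 1.5 and 5 under median-of-ratios scaling. With a minimum TPM of 5, *Ppargc1a* with sevoflurane and *Pfkfb3* with desflurane lost their calls. With a ratio above 1.5, 1 gene was higher and 1 lower in the desflurane control than in the sevoflurane control, and 1 gene was lower after 6 h of desflurane than of sevoflurane. The calls in the lists were 8 higher and 3 lower with sevoflurane and 10 and 6 with desflurane. At a ratio above 1.5 they became 15 and 11 with sevoflurane, where 13.9% and 9.36% of all genes were called. With desflurane 18 were higher at that ratio, where 9.07% of all genes were. At a ratio above 3 they became 2 and 1 with sevoflurane, where 2.01% and 1.43% of all genes were called. With desflurane they became 6 and 1, where 2.02% and 1.70% were. The list genes lower with sevoflurane became 5 with the control of the other agent and 5 after rescaling TPM without *Rn7sl1*. The rescaling also let more genes pass the minimum (9134 in place of 8270). Under median-of-ratios scaling 3 list genes were called lower with desflurane. The log2 change of the ratio of *Pck1* to *Pklr* with sevoflurane was 1.84 and became 0.88 with the control of the other agent, an alternative chosen after seeing the data. In limma, 3 of the 8 genes tested had a common change, where 284 of 8024 genes rose and 204 fell. Of the 3, *Ppargc1a* met the minimum only through the 6 h libraries and was not tested at a mean TPM of at least 5. Under median-of-ratios scaling *Ppargc1a* lost the call (limma, adjusted p = 0.0566). There 2 of 8 had a common change, where 269 of 8015 genes rose and 158 fell. Without a filter on low values, which let all 9 genes enter, 0 of 9 did (6 at an unadjusted p under 0.05), as did 0 of all 13629 genes (2096 unadjusted). The cause was not tested. Leaving out each library in turn gave a common log2 change from 0.93 to 1.34 for *Slc2a2* and from 0.78 to 1.62 for *Pck1*. For *Ppargc1a* it went from 1.53 to 3.07. In these fits the lone library of a side is assumed to vary like the others. With the agent as a block 4 of the genes passed, *Pfkfb1* being added, where 376 of 8024 genes rose and 316 fell. The locus alternative gave no value for *Ppargc1a* with sevoflurane, as its control had no assembled locus.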
